A study of Mus musculus with 6 samples.

Results

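The genes described here are 36 ribosome biogenesis factors, the proteins that cut, modify and fold ribosomal RNA precursors in the nucleolus. They were chosen by name, and each of the 36 was found in a row of its own among the 23698 gene rows of the count tables. The cells were a cultured mouse squamous cell carcinoma line (SCC), keratinocytes from newborn back skin that carry HrasG12V and lack Tgfbr2, at passages 10 to 15. Active Hras together with loss of the TGF-beta receptor gene Tgfbr2 serves as a model of squamous carcinoma, and every value below comes from this 1 genotype and 1 line. Ribosome profiling, which sequences the mRNA fragments covered by ribosomes (footprints), was represented by 1 library, and RNA-seq of the same line by 2 libraries. No library of another condition was analysed here, so all comparisons are between genes within SCC.

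Making a ribosome starts when RNA polymerase I copies a long precursor that holds most of the ribosomal RNAs. Small nucleolar RNAs (snoRNAs) guide its chemical modification: box C/D particles carry the 2′-O-methyltransferase fibrillarin, and box H/ACA particles carry the pseudouridine synthase dyskerin. A large assembly on the 5′ end of the precursor, the small-subunit processome, folds and cuts the part that becomes the small subunit, while other factors, among them the PeBoW complex, shape the large subunit. Growing and tumour cells are known for large nucleoli and a high output of new ribosomes, and many of these factors are classical targets of the transcription factor Myc.

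The ribosome profiling library held 3549555 estimated counts on exons, and the RNA-seq libraries held 10707930 in replicate 1 and 14003713 in replicate 2. Of the footprints counted on coding sequence (CDS) and untranslated regions, 93.4% lay on the CDS, against 68.7% and 70.2% of the RNA-seq counts. The 36 factors took 0.768% of all footprints on coding sequence, and 0.551% and 0.499% of the RNA-seq counts on coding sequence. Ncl alone supplied 33.2% of the members' footprints on coding sequence.

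The keratinocyte label was checked against marker genes. All 6 markers of basal keratinocytes were above 1 RPKM (counts scaled by counted length and by the summed counts on exons of the library) in both RNA-seq libraries, with summed levels of 14347 and 16466 RPKM, and Krt5, a basal keratin, was the most abundant at 7965 and 9483 RPKM. Fibroblast markers summed to 9.98 and 15.6 RPKM over 7 genes, led by Col3a1, and 4 of them passed 1 RPKM in both libraries. Melanocyte markers summed to 5.46 and 5.52 RPKM, nearly all of it from Pmel, and endothelial markers to 0.505 and 0.591 RPKM. Leukocyte markers summed to 37.9 and 46.1 RPKM, of which Cd68 gave 35.1 and 37.3 RPKM. The T-cell marker Cd3e had a count of 0 in both libraries, and the part of other cells in the results below was not tested.

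All 36 factors were expressed and translated. Each passed the filters on low values, an RNA-seq level above 1 RPKM in both libraries and a mean normalised count above 25 over the 3 libraries, as did 9863 genes in all. Mean RNA-seq levels on exons ran from 6.78 RPKM for Heatr1 to 171 RPKM for Ncl, with a median over the members of 30.3 RPKM against 15.3 RPKM over all genes passing. Footprint levels on coding sequence ran from 14.7 RPKM for Heatr1 to 1084 RPKM for Ncl, a 73.8-fold span. The RNA-seq span between the same genes depended on the region counted, 25.2-fold on exons and 86.6-fold on coding sequence. By footprint level 34 of the 36 lay above the median of all genes, and by RNA-seq level 27 did. The fewest footprints behind any of these values were 126, on Utp15.

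**Figure D1:**
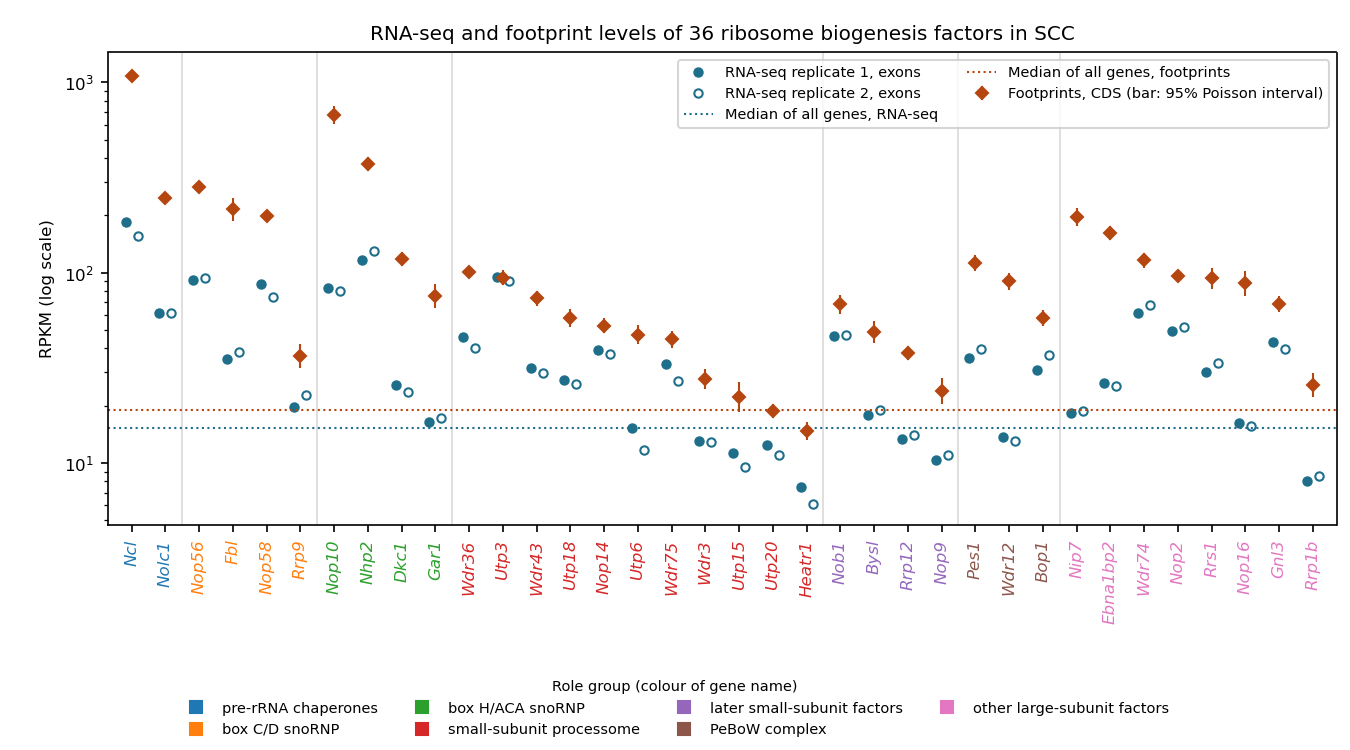
RNA-seq level on exons in each replicate (circles) and footprint level on the coding sequence (diamonds, bars for the 95% exact Poisson interval) of the 36 factors in SCC, in RPKM on a log scale, ordered within role groups. Ncl is highest by both measures and Heatr1 lowest, and only Heatr1 and Utp20 have footprint levels below the median of all genes (dotted line at 19.1 RPKM).

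Translational efficiency (TE) sets the ribosomes on a coding sequence against the mRNA present. It was taken as the log2 ratio of the footprint level on coding sequence to the mean RNA-seq level on exons, both in RPKM, less the median over all genes passing the filters, so that 0 marks a typical gene. The members had a median log2 TE of 1.01, and 35 of 36 were above the median of all genes. A log2 TE above 1, a ratio more than 2 times the typical one, was seen for 18 of 36 members, against 20.8% of all genes. None of the members was below -1, where 21.1% of all genes lay. With a single ribosome profiling library these are descriptions without a test, and counting errors cover neither biological spread nor biased recovery of fragments. The count of members above 1 moved to 11 when a gene needed at least 100 counts in every library (18.8% of all genes), and to 31 when levels were not divided by length (19.2% of all genes). With the limit of 100 counts 30 of 36 members were above 0. Utp20, Wdr75, Nop14, Nob1 and Gnl3 then turned negative, beside Utp3.

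**Figure D2:**
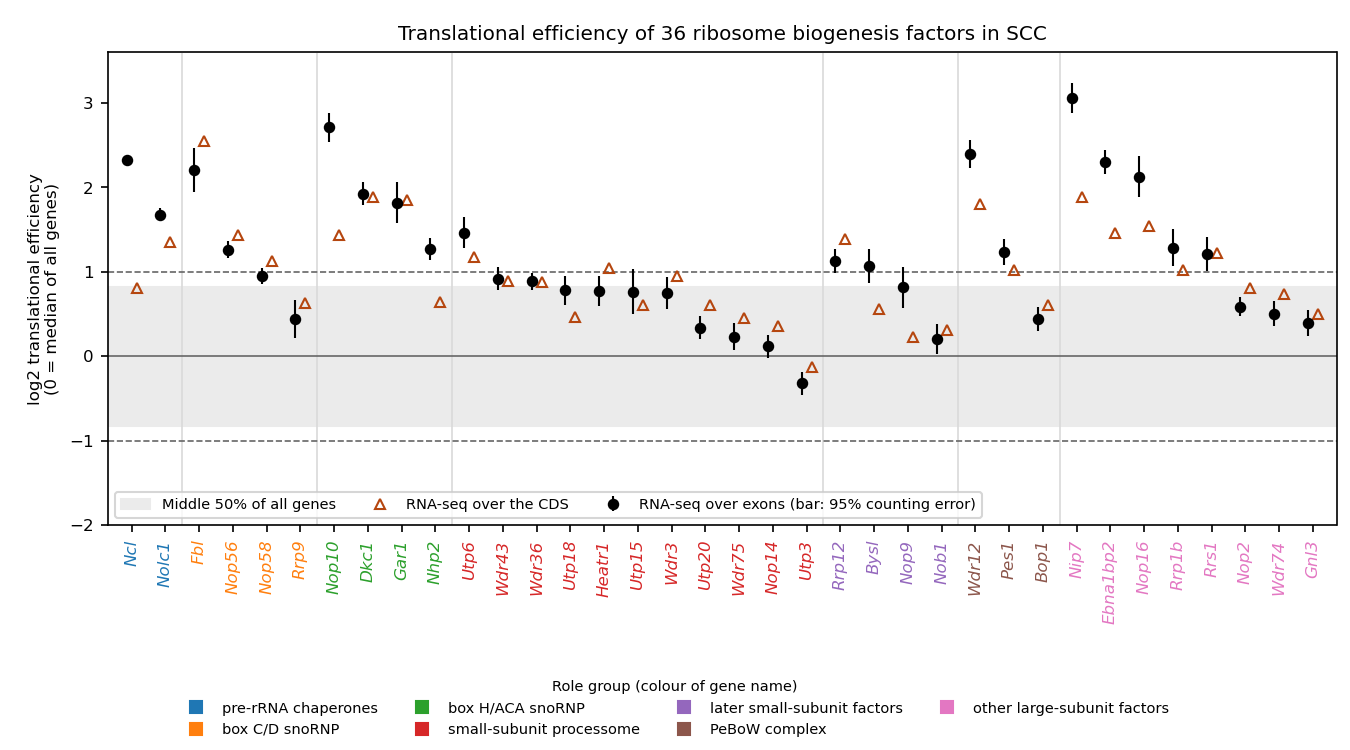
Log2 translational efficiency of the 36 factors in SCC, with RNA-seq counted over exons (circles, bars for the 95% counting error) or over the coding sequence (triangles), by role group; 0 is the median of all genes, the grey band their middle 50% and the dashed lines 1 and -1. Only Utp3 lies below 0 by either count, and Ncl, Nop10 and Nip7 move down by more than 1 when RNA-seq is counted over the coding sequence.

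How the mRNA was counted mattered for single genes more than for the set. With RNA-seq counted over the coding sequence in place of exons, the members' median log2 TE was 0.92, 17 members were above 1 (18.3% of all genes) and 0 were below -1 (19.5% of all genes). Of the 18 members above 1 by exons, 15 were above 1 by both counts. Ncl, Nop10 and Nip7 fell by more than 1 on the log2 scale. All 3 have a counted 3′UTR longer than their counted coding sequence, with a lower RNA-seq level on it. Other members share this trait and fell less, with changes from -0.16 for Utp15 to -0.84 for Ebna1bp2. On the 5904 nt counted as 3′UTR of Ncl the RNA-seq level was 10.7 and 9.06 RPKM, against 651 and 544 RPKM on its 2121 nt of coding sequence. Across the 36 members, log2 TE by exons had a Spearman correlation of 0.73 with the share of the counted exon length that is untranslated, and log2 TE by coding sequence one of 0.35. Over all 9863 genes these correlations were 0.29 and 0.20. Both TE values are given below wherever they differ by more than 1.5 times.

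Nucleolin (Ncl), which binds ribosomal RNA precursors, and Nolc1, which binds polymerase I and snoRNA particles, are abundant nucleolar phosphoproteins. Ncl, on the minus strand of chr1:86344719-86359400 (GRCm38), had RNA-seq levels on exons of 185 and 157 RPKM and a footprint level of 1084 RPKM (95% Poisson interval 1060 to 1107), the highest of the members by both measures. Its log2 TE was 2.32 ± 0.02 (counting standard error) by exons and 0.81 by coding sequence. Nolc1 had 61.4 and 61.1 RPKM by RNA-seq and 248 RPKM by footprints, and its log2 TE of 1.68 ± 0.04 by exons and 1.36 by coding sequence differed less. By coding sequence, Nolc1 and not Ncl had the higher TE of the pair.

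The box C/D particle is built on fibrillarin (Fbl), the methyltransferase, with the scaffold proteins Nop56 and Nop58 and the RNA-binding protein Snu13, while Rrp9 joins the U3 particle, which guides cleavage and not methylation. Nop56 had RNA-seq levels of 91.6 and 93.9 RPKM and a footprint level of 282 RPKM (266 to 300). Nop58 was at 87.2 and 74.3 RPKM by RNA-seq and at 198 RPKM (187 to 210) by footprints. Fbl stood at 35.2 and 38.5 RPKM by RNA-seq and 216 RPKM (187 to 248) by footprints. Among these 3 members the highest footprint level was 1.43 times the lowest, and the highest RNA-seq level 2.52 times the lowest. Snu13 (Nhp2l1 in the count tables), the fourth core protein, is not a member and was added here after its values were seen. Its footprint level was 602 RPKM (562 to 645), its mean RNA-seq level 65.1 RPKM and its log2 TE 2.87 by exons and 2.63 by coding sequence. With it the footprint span was 3.04-fold, wider than the RNA-seq span of 2.52-fold on exons and 2.83-fold on coding sequence. By RPKM the core as a whole was thus not more even in footprints. Without division by length the spans of the 3 members were wider, 13.99-fold by RNA-seq and 5.67-fold by footprints. For these 3 the RNA-seq span was thus the wider one with and without that division. Of the 3 members Fbl had the highest log2 TE at 2.21 ± 0.13 (2.55 by coding sequence), ahead of Nop56 at 1.26 ± 0.05 and Nop58 at 0.95 ± 0.05. For Fbl only 26.5% of the annotated coding sequence was counted, and for Nop56 63.1%, so that their levels rest on part of the gene. Rrp9 was lower by both assays, with 19.6 and 22.8 RPKM by RNA-seq, 36.5 RPKM by footprints and a log2 TE of 0.44 ± 0.12.

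The box H/ACA particle holds the pseudouridine synthase dyskerin (Dkc1) with Nhp2, Gar1 and Nop10, and the same proteins also bind telomerase RNA. All 4 had a log2 TE above 1 by exons (20.8% of all genes), and 3 of 4 by coding sequence (18.3% of all genes). Their median was 1.87, against 1.11 for the box C/D group, and the order turned when levels were not divided by length, with 1.72 against 1.91. Nop10, the smallest of them, had RNA-seq levels of 82.7 and 80.3 RPKM and a footprint level of 677 RPKM (605 to 756). Nhp2 had 116 and 130 RPKM by RNA-seq and 375 RPKM (344 to 407) by footprints. Levels within this complex were uneven. Dkc1 had 25.6 and 23.5 RPKM by RNA-seq and 118 RPKM (109 to 128) by footprints, and Gar1 had 16.5 and 17.2 RPKM and 75.4 RPKM (64.9 to 87.0). The highest footprint level was 8.98 times the lowest. The RNA-seq span was narrower than this on exons, at 7.29-fold, and wider on coding sequence, at 11.96-fold, so which assay was more even depended on the region counted. Dkc1 and Gar1 kept nearly the same log2 TE by both counts, 1.92 and 1.89 for Dkc1 and 1.82 and 1.85 for Gar1. The log2 TE of Nop10, in contrast, was 2.71 ± 0.09 by exons and 1.44 by coding sequence, and that of Nhp2 1.27 ± 0.07 and 0.64.

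The small-subunit processome gave 11 members and the lowest median log2 TE of the role groups by exons, 0.77. By exons 1 of 11 was above 1, against 20.8% of all genes, and 10 of 11 were above 0. By coding sequence the processome median was 0.61, with 2 of 11 above 1 (18.3% of all genes). The later small-subunit factors were then lowest at 0.44. Utp3, which is annotated as an intronless gene, was the only member below 0. Its RNA-seq levels were 94.98 and 90.6 RPKM and its footprint level 94.3 RPKM (85.9 to 103), and its log2 TE was -0.32 ± 0.07 by exons and -0.12 by coding sequence. Without division by length it was at 0.51, and all 36 members were then above 0. Nop14 followed with 39.2 and 37.6 RPKM by RNA-seq, 52.8 RPKM by footprints and a log2 TE of 0.12 ± 0.07. At the other end stood Utp6, at 15.3 and 11.7 RPKM by RNA-seq and 47.3 RPKM by footprints, with a log2 TE of 1.47 ± 0.09. The giant helical-repeat scaffolds Heatr1 and Utp20 were the least abundant per length by footprints. Heatr1, a factor also needed for polymerase I transcription, had 7.44 and 6.13 RPKM by RNA-seq and 14.7 RPKM (13.1 to 16.3) by footprints, with a log2 TE of 0.77 ± 0.09. Utp20 had 12.5 and 11.0 RPKM by RNA-seq and 18.8 RPKM by footprints, with a log2 TE of 0.34 ± 0.07. Utp15, a WD-repeat subunit, was at 11.2 and 9.50 RPKM by RNA-seq and 22.4 RPKM (18.6 to 26.6) by footprints, with a log2 TE of 0.77 ± 0.14. The remaining processome members Utp18, Wdr3, Wdr36, Wdr43 and Wdr75 had log2 TE values between 0.23 for Wdr75 and 0.92 for Wdr43. Wdr75 had 33.01 and 27.1 RPKM by RNA-seq and 44.8 RPKM (40.3 to 49.6) by footprints. Wdr36, whose log2 TE was 0.89, was the most translated processome gene by footprint level, at 101 RPKM.

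Later steps of small-subunit assembly were represented by Nob1, the endonuclease that makes the last cut of 18S ribosomal RNA, and by Bysl, Rrp12 and Nop9. Nob1 had RNA-seq levels of 46.4 and 46.8 RPKM, a footprint level of 68.2 RPKM (60.6 to 76.5) and a log2 TE of 0.21 ± 0.09. Rrp12, with a log2 TE of 1.13 by exons and 1.39 by coding sequence, and Bysl, with 1.07 and 0.56, were above 1 by exons. Nop9 had 0.82 by exons and 0.23 by coding sequence. Exon positions of Nop9 (1136 nt), Wdr3 (847 nt) and Bysl (361 nt) also belong to coding genes on the opposite strand in the annotation, and whether counting used strand is not given in the sources used here.

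PeBoW joins Pes1, Bop1 and Wdr12 and acts on the large-subunit precursor. Pes1 had RNA-seq levels of 35.7 and 39.5 RPKM and a footprint level of 112 RPKM (102 to 124). Bop1 had 30.6 and 36.8 RPKM by RNA-seq and 58.0 RPKM (52.8 to 63.6) by footprints. Wdr12 had 13.8 and 13.1 RPKM by RNA-seq and 89.98 RPKM (81.4 to 99.2) by footprints. Wdr12 thus had the lowest mRNA level of the complex, while Bop1 had the lowest footprint level, and the orders by the assays differ. Footprints spanned 1.94-fold and mRNA 2.80-fold, or 2.15-fold when RNA-seq was counted over the coding sequence. Log2 TE was 2.401 ± 0.08 for Wdr12 (1.81 by coding sequence), 1.24 ± 0.08 for Pes1 and 0.44 ± 0.07 for Bop1. The coding sequence of Pes1 was counted over 57.1% of its annotated length.

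Among the other large-subunit factors, 5 of 8 had a log2 TE above 1, against 20.8% of all genes, and the median was 1.25. Nip7, a small factor with an RNA-binding PUA domain, had the highest log2 TE of all 36 by exons. By coding sequence Fbl was highest at 2.55. Without division by length Fbl was also highest, at 2.97, and Nip7 was at 1.64. The RNA-seq levels of Nip7 were 18.4 and 18.8 RPKM and its footprint level was 197 RPKM (177 to 219). Its log2 TE was 3.06 ± 0.09 by exons, 8.35 times the typical ratio, and 1.89 by coding sequence, 3.71 times. Ebna1bp2, which assembles with early large-subunit precursors, had a log2 TE of 2.30 by exons and 1.46 by coding sequence. Nop16 had 2.13 and 1.55. Rrp1b was among the least abundant mRNAs at 8.09 and 8.53 RPKM, with 25.7 RPKM (22.2 to 29.6) by footprints and a log2 TE of 1.29 ± 0.11. Rrs1, counted over 67.4% of its coding sequence, had 30.2 and 33.4 RPKM by RNA-seq, 93.4 RPKM (82.0 to 106) by footprints and a log2 TE of 1.21 ± 0.10. The rRNA methyltransferase Nop2 and the large-subunit factor Wdr74 had higher mRNA levels, 50.6 and 64.6 RPKM on average, and log2 TE values of 0.59 and 0.51. Gnl3 (nucleostemin), a nucleolar GTPase abundant in stem and tumour cells, had 43.0 and 39.7 RPKM by RNA-seq, 68.7 RPKM by footprints and a log2 TE of 0.39 ± 0.08.

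Short coding sequences went with high TE in the members as in the whole table. The Spearman correlation of log2 TE with counted coding length was -0.52 over the 36 members and -0.44 over all 9863 genes, or -0.40 and -0.37 by coding sequence. The median counted coding length was 558 nt in the box H/ACA group and 2295 nt in the processome group, whose median TE was lower. The chaperones, at 2062.5 nt, had the highest group median TE by exons, 2.00, but not by coding sequence, where it was 1.08. Over all members it was 1596 nt, against 1353 nt over all genes passing.

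Footprints upstream of the coding sequence were sparse for most members. A comparison of footprint density on the 5′UTR with that on the coding sequence was made for genes with at least 60 counted nt and 30 footprints on the 5′UTR, which left 7 members. Their median ratio of 5′UTR to coding density was 0.63, against 0.50 over the 1102 genes examined in all. Of the 7 members, 1 had the higher density on the 5′UTR, against 24.3% of the 1102 genes. The gene was Utp15, with 33.3 footprints on 200 nt of 5′UTR and 126 on 1584 nt of coding sequence, a density ratio of 2.10 (95% exact binomial interval 1.37 to 3.06). Rrs1, at 0.95 (0.64 to 1.33), and Utp3, at 0.74 (0.49 to 1.04), came next. The intervals of Rrs1 and Utp3 include equal densities, that of Utp15 does not. Among the 29 members that fell short of these limits, only Rrp9 had an interval above equal densities. Its ratio was 2.83 (1.48 to 4.76), from 14.3 footprints on 39 nt. Ratios above 1 were also found for Wdr74 with 3 counted nt, Nob1 with 10 nt and Nip7 at 1.15 (0.83 to 1.57) on 58 nt. The same held for Heatr1 and Utp6 with fewer than 30 footprints. No share over all genes short of these limits was taken. With limits of 30 nt and 10 footprints, chosen after these values were seen, 4 of 24 members were denser on the 5′UTR, against 24.8% of 3082 genes. Nop10 had 148 footprints on 98 nt of 5′UTR, 30.7% of all its footprints, with a ratio of 0.63 (0.51 to 0.77), and 69.3% of its annotated coding sequence was counted. For Wdr12 the 808 counted nt of 5′UTR held 72.1 footprints, a ratio of 0.28. On 3′UTRs the median density over 32 members with at least 60 counted nt was 0.0195 of that on the coding sequence, against 0.0171 over 4709 genes.

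Several factors host snoRNA genes, so that 1 transcript can yield both a snoRNA and the mRNA of a nucleolar protein. In the GENCODE annotation of the same genome build, 6 of the 36 members (16.7%) had snoRNA genes inside them on the same strand, against 1.19% of 19645 protein-coding genes. Nop56 held 5, Nop58 held 4, Ncl, Gnl3 and Wdr43 held 3 each, and Dkc1 held 1. In Ncl these were Snora75, Snord82 and an unnamed snoRNA gene, and Snord82 lies at chr1:86356261-86356330 outside every exon of the coding transcripts. The mRNAs of these 6 hosts had a median of 61.0 RPKM, against 26.2 RPKM for the other 30 members. For the 176 host genes that passed the filters it was 30.3 RPKM. The median log2 TE of the 6 hosts was 1.11, against 0.98 for the other members and 0.45 for the 176 host genes. The snoRNAs themselves were not analysed here.

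The E-box CACGTG, the core motif that Myc and related factors bind, was searched in promoters from RefSeq (GRCm38.p6), 250 bases before to 50 after each start; the motif reads the same on both strands. Promoters were matched for 30 of the 36 members. The letters were found for 5 of these 30 (16.7%), Nop2, Pes1, Utp18, Utp20 and Wdr43, against 9.18% of 16781 genes of the count tables with a promoter and 8.09% of all 27025 genes with one. In Nop2 and Utp18 the motif lay before the start, 60 and 20 bases upstream, and these windows are shown with the motif in capitals, Nop2 from chr6:125131811-125131840 on the plus strand and Utp18 from chr11:93885769-93885798 on the minus strand.
Nop2: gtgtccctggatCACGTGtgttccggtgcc
Utp18: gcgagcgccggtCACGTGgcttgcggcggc
A match describes letters in a window and says nothing of binding in SCC.

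Counts of the 2 RNA-seq libraries were compared with each other by a chi-square test, which found more difference than sampling gives: over 12502 genes the statistic was 79356 on 12501 degrees of freedom, 6.35 per degree. This compares libraries, not conditions, and sets their difference against counting noise alone, so it says nothing of biological spread. Nothing in the labels says whether the replicates were separate cultures. Among the members the log2 ratio of replicate 2 to replicate 1 ran from -0.39 for Utp6 to 0.26 for Bop1, with an SD of 0.15 against 0.20 over all genes. In some role groups every member had the same sign. All 11 processome members were lower in replicate 2, with a median log2 ratio of -0.19, whereas all 4 later small-subunit factors were higher, with a median of 0.08. The 95% counting interval of the ratio lay below 0 for 6 of the 11 processome members, against 20.8% of all genes, and it included 0 for the other 5 and for all 4 later small-subunit factors. Over all members it excluded 0 for 12 of 36, among them 2 of 4 in the box C/D group and 2 of 3 in PeBoW, against 36.3% of all genes. Utp6, Heatr1 and Wdr75 had the largest differences, -0.39, -0.28 and -0.28, each with a counting standard error under 0.10. Over all genes passing, 5198 of 9863 were lower in replicate 2. Counted exon length had a Spearman correlation of -0.25 with this ratio over all genes and of -0.44 over the members, and its part in the pattern was not tested. Some markers of other cells were also higher in replicate 2. They were 5 of the 7 fibroblast markers, among them Col1a1 at 2.02 and 4.19 RPKM and Col1a2 at 2.29 and 3.94 RPKM, and 3 of the 4 leukocyte markers found, with Lyz2 at 2.71 and 8.56 RPKM. Of melanocyte markers 2 of 5 and of endothelial markers 2 of 3 were higher, as were 4 of the 6 basal keratinocyte markers. The summed levels are given above, and the part of other cells in the replicate difference was not tested.

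**Figure D3:**
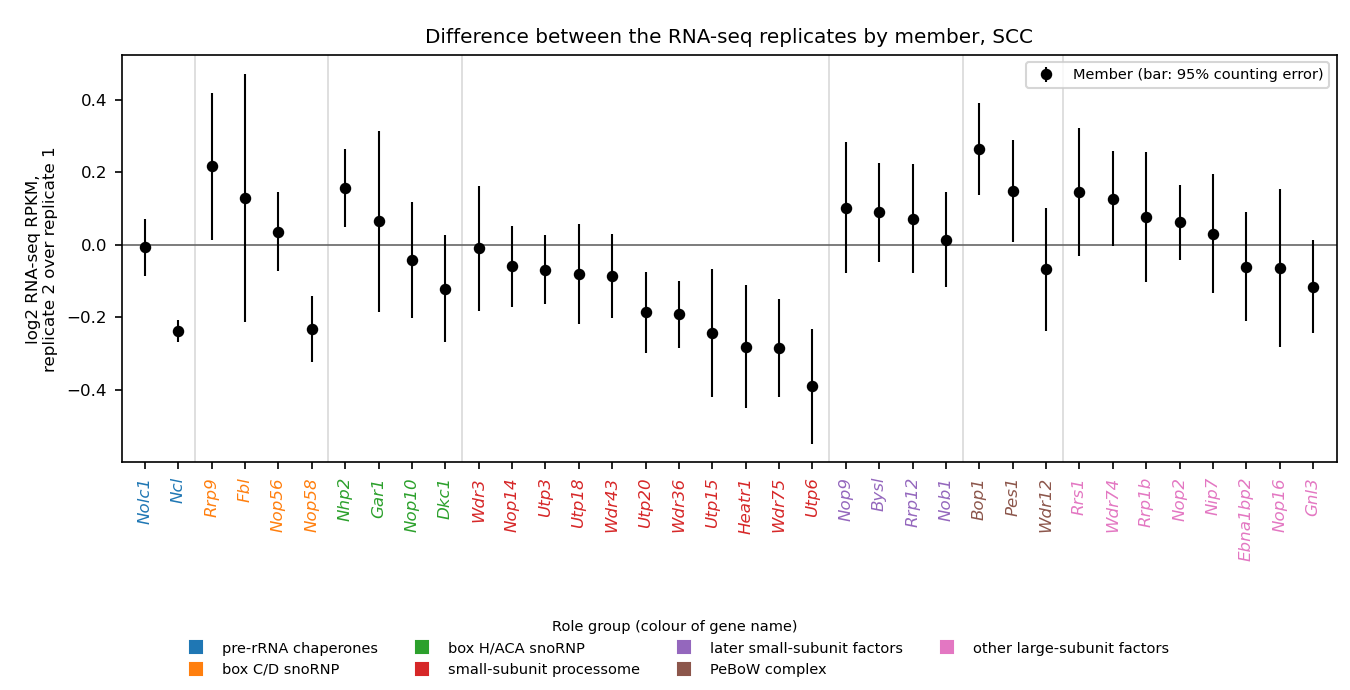
Log2 ratio of the RNA-seq level in replicate 2 to that in replicate 1 for the 36 factors in SCC, by role group, with bars for the 95% counting error. The 11 processome members all lie below 0, down to -0.39 for Utp6, with bars that include 0 for 5 of them, and the 4 later small-subunit factors lie above 0 with bars that include it.

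Other genes of the pathway also lay mostly above the typical gene. Of 96 other ribosome biogenesis genes, all of which passed the filters, 31 had a log2 TE above 1, against 20.8% of all genes. Below -1 there was 1 of the 96, against 21.1% of all genes. The median was 0.76, and 90 of 96 were above 0. In that list Dimt1, the dimethylase of 18S ribosomal RNA, was highest by exons at 4.12 (3.47 by coding sequence), from 91.4 footprints on the 45.9% of its coding sequence that was counted, followed by the nucleoplasmin Npm3 at 2.999, and Rsl24d1 was highest by coding sequence at 3.79 (2.53 by exons). The lowest were Utp14a at -0.89 and Gltscr2 (Nop53) at -1.82. RNA polymerase I and its factors were closer to the typical gene. Their 15 genes had a median of 0.43 (0.26 by coding sequence), with 3 above 1 and 3 below -1, near the shares of 20.8% and 21.1% over all genes. The highest by exons were Polr1e at 1.87 (1.05 by coding sequence) and Twistnb at 1.16, and the lowest Ttf1 at -1.16 and Taf1c at -1.56. By coding sequence the extremes were Twistnb at 1.69 and Taf1d at -1.46. The RNA exosome, which trims precursor RNA, had a median of 1.39 over 14 genes (1.06 by coding sequence). The highest by exons were Mphosph6 at 2.41 and C1d at 2.27, but by coding sequence C1d was at 0.54 and Exosc6 was highest at 2.83 (1.40 by exons). The lowest by exons were Exosc9 at 0.30 and Exosc10 at -0.31. The members' median of 1.01 thus lay between those of polymerase I and the exosome.

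Cytosolic ribosomal proteins, the building blocks that these factors assemble, were far more abundant, with a median RNA-seq level of 358 RPKM over 79 genes against 30.3 RPKM for the members. Their median log2 TE was 2.33 by exons, 1.73 by coding sequence and 1.36 when genes counted over less than 80% of their coding sequence were dropped. The values spread more widely than those of the members, with an SD of 2.00 against 0.81 by exons and of 1.66 against 0.57 by coding sequence. The highest by exons were Rpl21 at 6.72 and Rps25 at 6.52, or 3.63 and 5.23 by coding sequence. Rpl4 at -1.39 and Rplp1 at -1.45 were the lowest by exons, and Rplp1 was at -0.28 by coding sequence. Rpl21 and Rps25 were counted over 20.8% and 20.3% of their annotated coding sequence. The members' extremes by exons were 3.06 for Nip7 and -0.32 for Utp3, and 31 of the 36 members had at least 80% of their coding sequence counted.

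**Figure D4:**
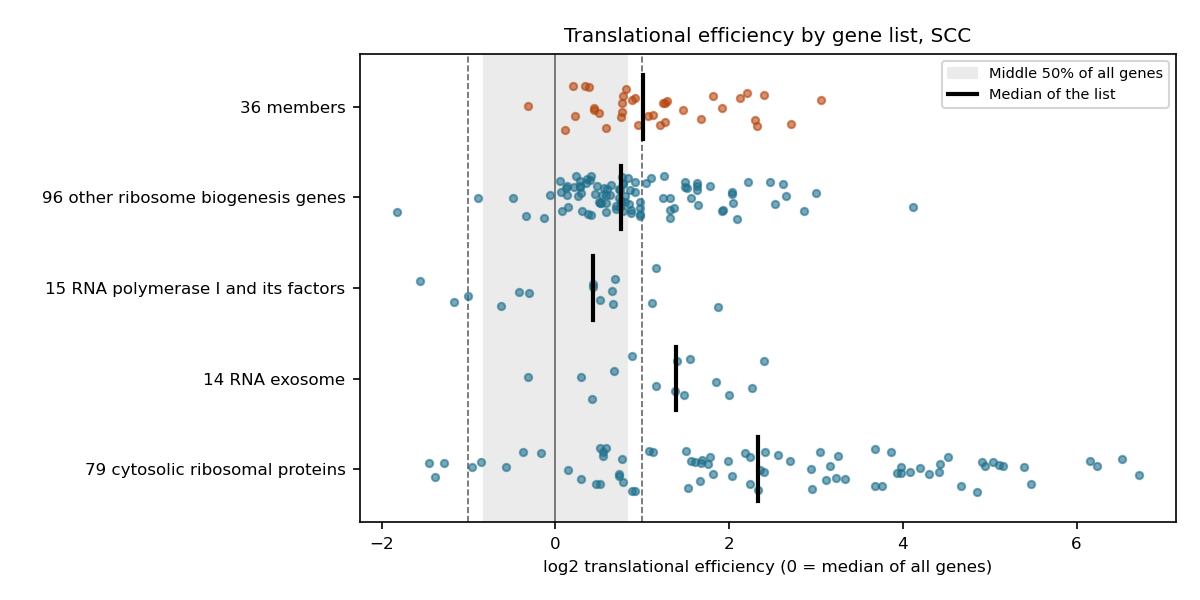
Log2 translational efficiency of each gene (points) in the 36 members and 4 related lists in SCC, with the median of each list as a black bar, the middle 50% of all genes in grey and dashed lines at 1 and -1. Medians run from 0.43 for RNA polymerase I and its factors to 2.33 for cytosolic ribosomal proteins, with the members at 1.01.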

How the data were processed

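Files of 1 ribosome profiling and 2 RNA-seq libraries were used. Per the study's methods and the submitters' processing notes, reads were trimmed, ribosome profiling reads matching ribosomal, mitochondrial or transfer RNA were then dropped with Bowtie2 2.4.1, the rest were aligned to GRCm38 with STAR 2.6.1, and Plastid counted each gene. The authors deposited estimated counts, which can be fractional and carry no normalisation. RPKM values that the authors deposited served only as an alternative, since RPKM was recomputed from summed exon counts. Base means used DESeq2 size factors of counts rounded to whole numbers (footprints on CDS, RNA-seq on exons). Gene structures came from GENCODE M21, on the same build, and the annotation used for counting is not given in the sources used here. Members and lists were chosen with earlier results of these data known. Genes described in full are the 3 highest and 3 lowest members by TE and by RNA-seq, the 3 with the largest replicate difference, the 3 highest 5′UTR ratios, the members of 3 complexes, Ncl and Nolc1. Of each other list the 2 highest and 2 lowest genes by TE are named. Levels of other members (such as Utp20, Gnl3 and Rrp9), Rsl24d1, Taf1d, Exosc6, other 5′UTR values and the genes of the E-box and snoRNA searches were picked after their values were seen. The calculation was tested on simulated data. Python 3.11.15, scipy 1.17.1, R 4.3.3, edgeR 4.0.16 and DESeq2 1.42.0 were used.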

Additional observations from a re-analysis of the deposited data

How the results depend on the processing

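The members' median log2 TE stayed above 0 under every alternative tried, and no member fell below -1 in any of them. It was 1.00 and 1.04 when either RNA-seq replicate was left out, and the processome median was then 0.66 to 0.81. Scaling by edgeR TMM factors or DESeq2 size factors says nothing of stability, because a factor shared by all genes of a library nearly cancels against the median of all genes. The deposited RPKM values moved no member by more than 0.01. With RNA-seq counted over the CDS the members' median was 0.92, and the role group medians were 1.08 for the chaperones, 1.28 for box C/D, 1.65 for box H/ACA, 0.61 for the processome, 0.44 for later small-subunit factors, 1.03 for PeBoW and 1.12 for the other large-subunit factors. RNA-seq levels then spanned 2.83-fold in the box C/D core, 11.96-fold in the box H/ACA core and 2.15-fold in PeBoW. Without division by length, 31 members were above 1, the members' median was 1.40, and the groups in the same order were at 1.62, 1.91, 1.72, 1.26, 0.81, 1.42 and 1.45, with the other ribosome biogenesis genes at 1.17. RNA-seq and footprint levels then spanned 13.99-fold and 5.67-fold in the box C/D core, 5.42-fold and 3.28-fold in the box H/ACA core, and 1.84-fold and 1.13-fold in PeBoW. When genes under 100 counts in any of the libraries were dropped, the reference median of all genes rose, every member changed by -0.39, 11 members were above 1 and 30 above 0, and the members' median was 0.62. The groups in the same order were then at 1.61, 0.71, 1.48, 0.37, 0.55, 0.84 and 0.86, and the other ribosome biogenesis genes at 0.37. With no filter the members' median was 0.96, box H/ACA was at 1.83 and the other ribosome biogenesis genes at 0.72. When genes counted over less than 80% of their CDS were dropped, 31 members were kept and the medians were 0.93 for the members, 0.74 for box C/D, 1.47 for PeBoW and 0.80 for the other ribosome biogenesis genes. A pseudocount of 1 RPKM put box H/ACA at 1.85. With at least 10 footprints on the 5′UTR, 2 of 20 members, Utp6 and Utp15, were denser there than on the CDS, against 25.3% of 2930 genes, and the ratio of Utp6, 1.23 (0.69 to 2.01), has an interval that includes equal densities. With at least 100 it was 0 of 2, against 19.0% of 237 genes. Other alternatives were chosen after seeing the data. A 5′UTR limit of 30 nt gave 2 of 9 members (23.4% of 1171 genes), and with at least 10 footprints 4 of 24 (24.8% of 3082 genes). With Snu13 (Nhp2l1) added, footprints spanned 3.04-fold in the box C/D core, against 1.43-fold without it. The cause was not tested.

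Depth limits the TE of single members little, since the fewest footprints on a CDS were 126, on Utp15. The 5′UTR comparison was more limited, with 7 members past its limits of length and footprints. A single ribosome profiling library allows no test of TE. No paired analysis was possible, since there is 1 ribosome profiling library and its title gives no replicate number.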
